A study of Mus musculus with 4 samples.

Results

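Lipopolysaccharide (LPS) changes in histone H3 trimethylated on lysine 4 (H3K4me3) were followed in primary macrophages grown for 7 days from the bone marrow of Wbp7+/- mice, which keep 1 functional copy of Wbp7. The peak list of cells given 10 ug/ml LPS was compared with that of untreated cells, and peaks were matched if they overlapped by 1 bp or more. Joining the overlapping peaks of both lists gave 18127 regions, against 18786 when the lists of all 4 libraries of the study were joined. Of the 18127, 15284 had a peak in both lists, 1550 in the LPS list alone and 1293 in the untreated list alone. Below, these are called shared, new and missing.

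H3K4me3 sits around the transcription start sites of active and inducible genes, and its width differs between genes. LPS, from the outer membrane of Gram-negative bacteria, is sensed by macrophages through Toll-like receptor 4 and switches on NF-kB and interferon-regulated genes. Wbp7, also called Kmt2b, encodes a methyltransferase for lysine 4 of histone H3. The study mapped the mark by ChIP-seq in Wbp7+/- and Wbp7-/- cells, untreated and with LPS, on a mixed background of C57BL/6 (94%) and 129/Ola (6%). Each of the 4 groups was 1 library, and no source used here gives the number of mice behind a library. No wild-type library was used, so every sample here lacks at least 1 copy of Wbp7.

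The LPS time of the Wbp7+/- library is uncertain: its sample label gives 4 h, while the first line of its file gives 24 h. Both sources give 4 h for the Wbp7-/- library. With 1 library a side, none of the differences below was tested, and the intervals given are 95% Wilson intervals that cover counting error over peaks only. Only lists of peaks and no read numbers were used, so a missing peak means that a region did not pass the peak caller's threshold at an unknown depth. No gene annotation of the mm9 build was used. Regions are therefore named by mm9 position, counted from 1, and neither the macrophage identity of the cells nor the Wbp7 locus was checked through genes.

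The untreated and LPS lists of Wbp7+/- cells were nearly the same in length, with 17316 and 17313 peaks. Each peak has a score from the peak caller, which by its convention grows as the p-value shrinks and which piles up at 3100. Peaks at 3100 or above, called the ceiling, numbered 9695 untreated and 9480 with LPS. The covered genome was 34.51 Mb untreated and 34.93 Mb with LPS, a net difference of 1.21% of the untreated length. Larger opposite movements made up that difference. New peaks added 1311 kb and widened regions 769.5 kb. Missing peaks removed 1.002 Mb, and in narrowed regions the covered length went from 0.5649 to 0.3086 Mb. The 14562 remaining shared regions went from 32.09 to 31.69 Mb.

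New peaks made up 8.95% of the LPS list and missing peaks 7.47% of the untreated list. These totals were similar because weak peaks turned over about equally in both directions. Among peaks scoring under 100, 43.8% (41.7 to 45.9) of LPS peaks were new and 45.7% (43.5 to 47.9) of untreated peaks were missing. The directions parted as scores grew. Between 100 and 500, 16.9% (15.7 to 18.3) of LPS peaks were new and 12.1% (11 to 13.3) of untreated peaks were missing. From 500 to the ceiling the shares were 3.33% (2.71 to 4.09), or 88 of 2640, and 0.509% (0.298 to 0.869), or 13 of 2553. At the ceiling the counts were 20 new of 9480 and 0 missing of 9695, and the Wilson interval of the latter reaches up to 0.0396%. When each list was cut at its own median score, which was the ceiling in both, only ceiling peaks were kept. The order was then reversed, with 232 LPS peaks and 389 untreated peaks without a match. A peak below the cut no longer counted as a match. Of these, 20 and 0 had no peak of any score in the other list. That cut thus mostly counted regions at the ceiling in 1 list and below it in the other.

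**Figure D1:**
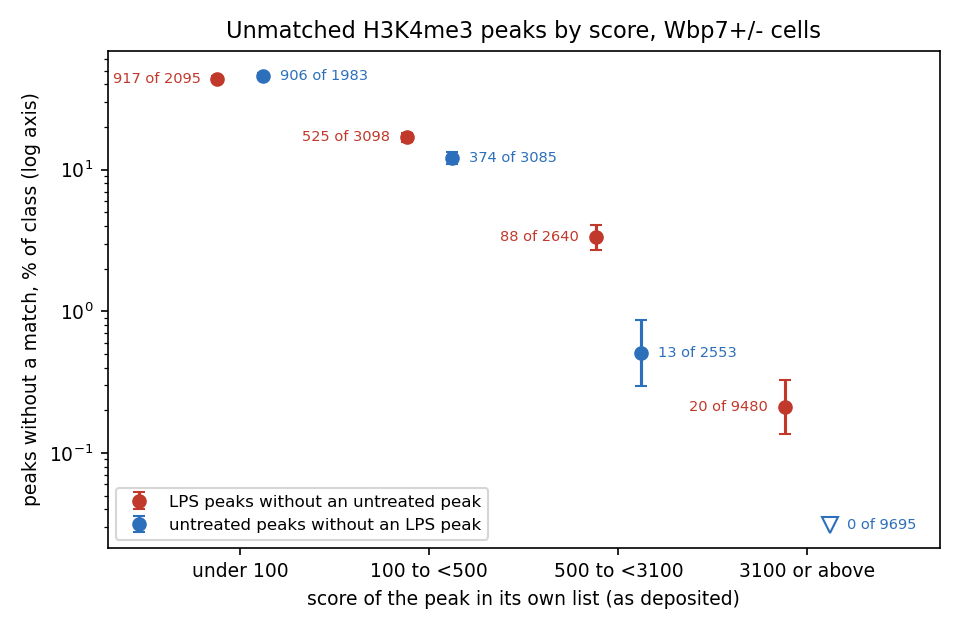
Share of Wbp7+/- peaks without a match in the other list (vertical log axis, percent of the class) against the score class of the peak in its own list. Bars are 95% Wilson intervals. The open triangle marks a count of 0 and is drawn at the share that 3 peaks would give, 0.0309%. New and missing shares lie together under a score of 100 and separate from a score of 100 upwards, most of all from 500, with 88 against 13 peaks and then 20 against 0.

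The weak and the strong new peaks also differed in width. New peaks scoring under 100 had a median width of 586 bp, against 645.5 bp for matched LPS peaks of that class. New peaks at the ceiling had a median width of 3432 bp, against 2445 bp for matched ones. From 500 to the ceiling the medians were 1784 bp for new and 1354 bp for matched LPS peaks. By median, strong new peaks were wider than matched peaks of their score class and weak ones were not. Missing peaks did not have this pattern. The 13 from 500 to the ceiling had a median of 1223 bp, against 1300 bp for matched untreated peaks. Under 100 the medians were 616 and 607 bp, and from 100 to 500 they were 909 and 853 bp.

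Match and no match were separated by small distances at some places. Among pairs of 1 untreated and 1 LPS peak the smallest overlap was 68 bp, and 1 pair overlapped by less than 100 bp. On the other side, 77 new and 57 missing peaks lay less than 100 bp from a peak of the other list. New peaks lay close to untreated peaks more often than LPS peaks in general. An untreated peak was within 5 kb of 45% of new peaks, while 24.2% of matched LPS peaks had another untreated peak that close. For missing peaks the shares were 37.9% and 24.5%. The 20 new peaks at the ceiling stood further off than other new peaks, with a median gap of 24.5 kb. The median was 9.22 kb from 500 to the ceiling and 6.96 kb over all new peaks. Matched LPS peaks had a median of 17.7 kb to another untreated peak. Of the 20, 25% had an untreated peak within 5 kb, near the 24.2% of matched LPS peaks.

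The 20 new peaks at the ceiling are the highest-scoring appearances of the mark. The widest lay on chromosome 11 from 117835263 to 117842133. It covered 6871 bp after LPS and stood 3.65 kb from the nearest untreated peak. Others on chromosome 11, from 78733463 to 78740026 and from 83339644 to 83344158, covered 6564 and 4515 bp. Both lay far from any untreated peak, with gaps of 55.3 and 44.7 kb. On chromosome 2 the peak from 129130831 to 129137390 covered 6560 bp, that from 30755616 to 30759314 covered 3699 bp and that from 150395879 to 150398850 covered 2972 bp. The most isolated was on chromosome 18 from 60535697 to 60539051, with 3355 bp and its nearest untreated peak 119 kb away.

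Of the same 20, the peak on chromosome 17 from 13203090 to 13207496 bordered an untreated peak at 0.344 kb and covered 4407 bp, and that on chromosome 1 from 58787482 to 58789187 did so at 0.685 kb with 1706 bp. These are the only ones of the 20 within 1 kb of an untreated peak. The others on chromosome 17 ran from 34994305 to 34999698 with 5394 bp and from 50310343 to 50312532 with 2190 bp. Chromosome 5 held 3, from 30339573 to 30342399 with 2827 bp, from 92789170 to 92791832 with 2663 bp and from 65255795 to 65257115 with 1321 bp. The rest spread over chromosomes 1, 2, 3, 8 and 18 and measured from 1525 to 5297 bp.

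Wbp7-/- cells, whose lists played no part in choosing these regions, had the same pattern of presence at nearly all 20. At 18 a peak was present with LPS and absent without it. The Wbp7-/- LPS peaks in the 20 regions scored from 770.12 to 3100, against 3100 at all 20 in Wbp7+/- cells. The widest covered 6362 bp of the region in LPS-treated Wbp7-/- cells and none of it in untreated ones. The exception with a peak in both Wbp7-/- lists was on chromosome 2 from 150395879 to 150398850, with 1656 bp untreated and 2310 bp with LPS. The exception with no Wbp7-/- peak was on chromosome 1 from 173696956 to 173699585, where the Wbp7+/- LPS peak covered 2630 bp.

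**Figure D2:**
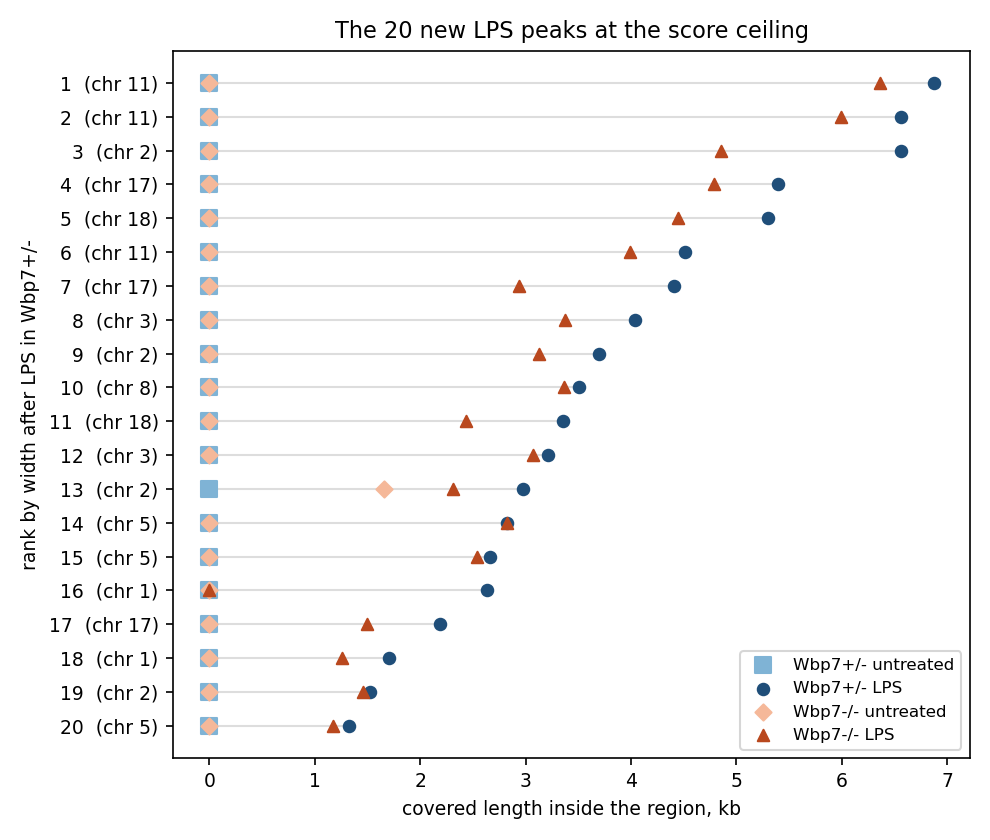
Covered length in kb at the 20 new ceiling peaks of LPS-treated Wbp7+/- cells, ordered by width, with 1 symbol for each of the 4 libraries. Untreated Wbp7+/- cells are at 0 throughout by definition, LPS-treated Wbp7-/- cells have a peak at all but rank 16, and untreated Wbp7-/- cells have one at rank 13 only.

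Below the ceiling, the 10 highest-scoring new peaks scored from 2029.16 to 3018.16 and covered 1178 to 4115 bp. All 10 were marked in Wbp7-/- cells with LPS and unmarked without it. Their Wbp7-/- LPS scores ran from 217.05 to 2341.42. The highest score was at chromosome 2 from 32240723 to 32243561, where the LPS peak covered 2839 bp in Wbp7+/- cells and 2012 bp of the region in Wbp7-/- cells. The widest was at chromosome 2 from 129192828 to 129196942, with 4115 bp, of which the Wbp7-/- LPS peak covered 1572 bp. One was on the X chromosome, from 71317993 to 71320513, with 2521 and 2476 bp. The peak on chromosome 18 from 60542665 to 60544764, with 2100 bp, was the neighbour of the ceiling peak from 60535697 to 60539051.

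How often a new peak was also gained in Wbp7-/- cells depended on its score. The pattern of an LPS peak without an untreated one was seen in Wbp7-/- cells at 14.2% of new regions under 100, 39.2% of those from 100 to 500, 77.3% of those from 500 to the ceiling and 90% at the ceiling. Over all shared Wbp7+/- regions the same Wbp7-/- pattern was seen at 3.06%. That share was not split by score class, and 9208 of the 15284 shared regions were at the ceiling in both lists. It is therefore not a matched background for the weaker classes. Of the 917 new regions under 100, 75% had no peak in either Wbp7-/- list.

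Strong missing peaks were mostly still called in LPS-treated Wbp7-/- cells, but with lower scores. The 10 highest-scoring covered 486 to 1643 bp and scored from 582.84 to 2083.55. In Wbp7-/- cells 9 of the 10 had a peak both untreated and with LPS, and at all 9 the Wbp7-/- score was lower with LPS. The strongest was on chromosome 17 from 34700911 to 34702553, with 1643 bp and a score of 2083.55 in untreated Wbp7+/- cells. Wbp7-/- peaks covered 1626 bp of it untreated, scoring 1838.76, and 1280 bp with LPS, scoring 311.64. The next, on chromosome 9 from 37058999 to 37060621, had 1623 bp in untreated Wbp7+/- cells, and 1623 and 1071 bp in Wbp7-/- cells, and lay 0.27 kb from an LPS peak of Wbp7+/- cells.

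At 2 of the 10 Wbp7-/- peaks covered the whole region with and without LPS. These were on chromosome 8 from 127810226 to 127811524, with 1299 bp and Wbp7-/- scores of 2344.3 untreated and 1531.81 with LPS, and on chromosome 5 from 125620539 to 125622060, with 1522 bp and scores of 1115.94 and 273.42. On chromosome 4 from 129042197 to 129043275 Wbp7-/- coverage went from 759 bp untreated to 1079 bp with LPS. Only the peak on chromosome 16 from 84621432 to 84621917, the narrowest at 486 bp, was also absent from LPS-treated Wbp7-/- cells. Over the 13 missing peaks scoring 500 or more, 11 were present in both Wbp7-/- lists, each with a lower score with LPS, and 2 in the untreated one alone. Over all 414 missing regions present in both Wbp7-/- lists, the Wbp7-/- score was lower with LPS at 315. Without those that both Wbp7-/- lists have at the ceiling, this is 81.2%, against 62.4% of shared regions. Of the 108 new peaks scoring 500 or more, 86 were matched by a Wbp7-/- peak with LPS alone and 7 by one in both lists.

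Shared regions differed in width as well. A shared region was called widened if LPS-treated cells had at least 1.5 times the covered length of untreated cells and at least 500 bp more, and narrowed in the mirror case. By this rule 491 of 15284 shared regions (3.21%, 2.94 to 3.5) were widened and 231 (1.51%, 1.33 to 1.72) narrowed. The bulk of regions moved little. The median ratio of LPS to untreated covered length was 0.983, with quartiles of 0.907 and 1.07. The widened regions went from a median of 1412 bp to 2805 bp, and the narrowed ones from 1946 bp to 1030 bp.

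**Figure D3:**
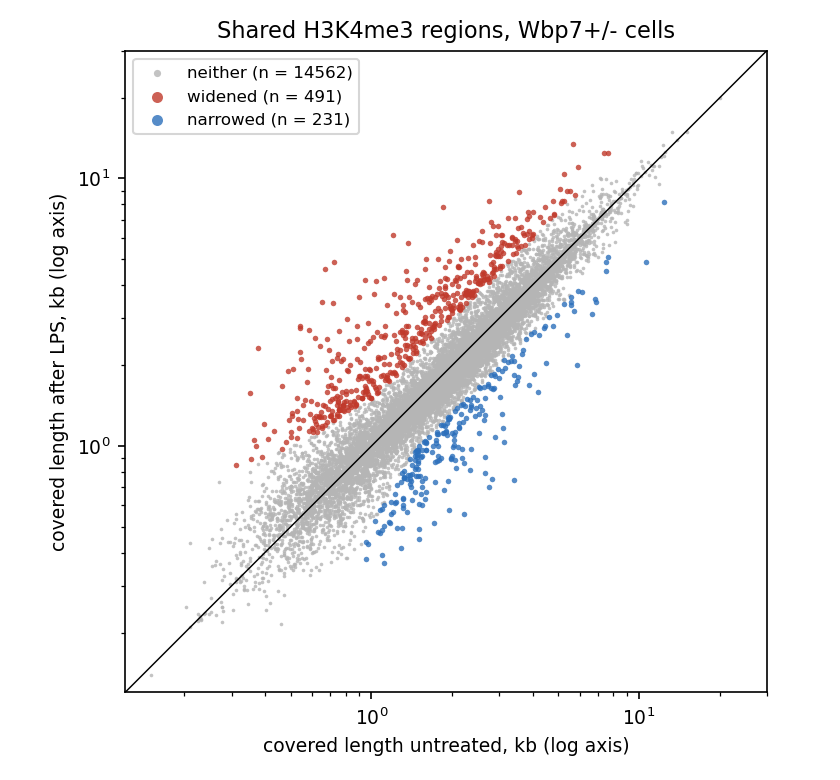
Covered length with LPS against covered length untreated, both in kb on log axes, for the 15284 shared regions of Wbp7+/- cells; each point is 1 region and the line marks equal lengths. The 491 widened regions outnumber the 231 narrowed ones, and most regions lie close to the line.

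Widening outnumbered narrowing among the strongest regions too. Of 9208 regions at the ceiling in both lists, 191 (2.07%, 1.8 to 2.39) were widened and 49 (0.532%, 0.403 to 0.703) narrowed. The median ratio at the untreated ceiling was nonetheless 0.975, so the typical ceiling region was slightly narrower with LPS while a small set was wider. Among weak regions the call depended on which list set the class. Under 100 in the untreated list, 8.91% were widened and 1.27% narrowed, while under 100 in the LPS list 1.4% were widened and 6.69% narrowed. Grouping by 1 list selects for peaks that were weak in that list.

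Widening mostly ran out from 1 end. At 339 of 491 widened regions (69%, 64.8 to 73) at least 80% of the outward shift was at a single end. The end with the larger shift moved by a median of 1151 bp and the other by 114 bp. The shifted end was the one of lower coordinate at 164 and of higher coordinate at 175. Gene strand was not used, so the shift cannot be placed upstream or downstream of a start site. For narrowing the count was 164 of 231 regions (71%, 64.8 to 76.5).

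Neighbouring peaks also ran together. In Wbp7+/- cells several untreated peaks became 1 LPS peak at 576 shared regions (3.77%), and 1 untreated peak became several at 349 (2.28%). Wbp7-/- cells went the other way, with 301 such fusions (2.27%) and 440 splits (3.32%) among 13273 shared regions. This difference between genotypes was not tested. Fusion accounted for few of the widened regions, 31 of 491, while 444 had 1 peak in each list. Among shared regions 197 passed 5 kb of covered length with LPS, 100 dropped under it and 527 were at or above it in both lists. A further 5 new peaks and 0 missing ones measured 5 kb or more.

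The region with the largest gain lay on chromosome 2 from 34808141 to 34821575. Untreated Wbp7+/- cells had 4 separate peaks there, covering 5688 bp with a top score of 1392.12, and LPS-treated cells had 1 peak of 13435 bp at the ceiling. Wbp7-/- coverage in the same region was 5544 bp untreated and 12890 bp with LPS. On chromosome 7 from 133734834 to 133742641 a weak peak of 1853 bp, with a score of 430.48, became a ceiling peak of 7808 bp. The gain there was again present in Wbp7-/- cells, with 998 and 7653 bp. On chromosome 16 from 84701458 to 84709681 the values were 2750 and 8224 bp, and the extension of 4197 bp at the end of higher coordinate exceeded that of 1277 bp at the other.

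Several of the largest gains were one-sided. On chromosome 9 from 20818463 to 20827332 coverage went from 3564 to 8870 bp, with 4860 bp of the extension at 1 end and 446 bp at the other. On chromosome 15 from 98502561 to 98508702 it went from 1202 to 6142 bp, with 4299 bp at the end of lower coordinate. On chromosome 7 from 3498897 to 3503747 a peak of 727 bp scoring 111.3 became one of 4851 bp at the ceiling, with 3921 bp at that same end. Others grew on both sides. On chromosome 4 from 131475679 to 131480246 the peak went from 669 to 4568 bp with 1984 and 1915 bp at its ends, the highest ratio of all shared regions at 6.83. On chromosome 5 from 115368619 to 115379132 it went from 5252 to 10348 bp with 2851 and 2411 bp.

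In all, 6 of the 15 largest gains started below the ceiling and all 15 ended at it. Broad regions became broader on chromosome 11, where coverage from 54765058 to 54777464 went from 7409 bp in 3 peaks to 12407 bp in 1. From 22749633 to 22762115 on that chromosome it went from 7675 bp in 2 peaks to 12483 bp in 1. The other members of the 15 were on chromosome 8 from 41946565 to 41952285 (1366 and 5721 bp), on chromosome 6 from 121193574 to 121202696 (5046 and 9123 bp), on chromosome 10 from 87814020 to 87820886 (2806 and 6867 bp) and on chromosome 2 from 127158818 to 127165974 (3236 and 7129 bp). Wbp7-/- cells met the widening rule at 12 of the 15.

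The remaining 3 of the 15 were not called widened in Wbp7-/- cells. The region on chromosome 18 from 4344350 to 4355346, went from 5889 to 10997 bp in Wbp7+/- cells but from 5950 to 5920 bp in Wbp7-/- cells. The chromosome 15 region went from 1872 to 2482 bp in Wbp7-/- cells. The chromosome 4 region gained in Wbp7-/- cells too, from no peak to 3642 bp at the ceiling. It was not called because no ratio can be formed without an untreated peak. A difference between the genotypes at these regions was not tested, for want of replicate libraries.

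**Figure D4:**
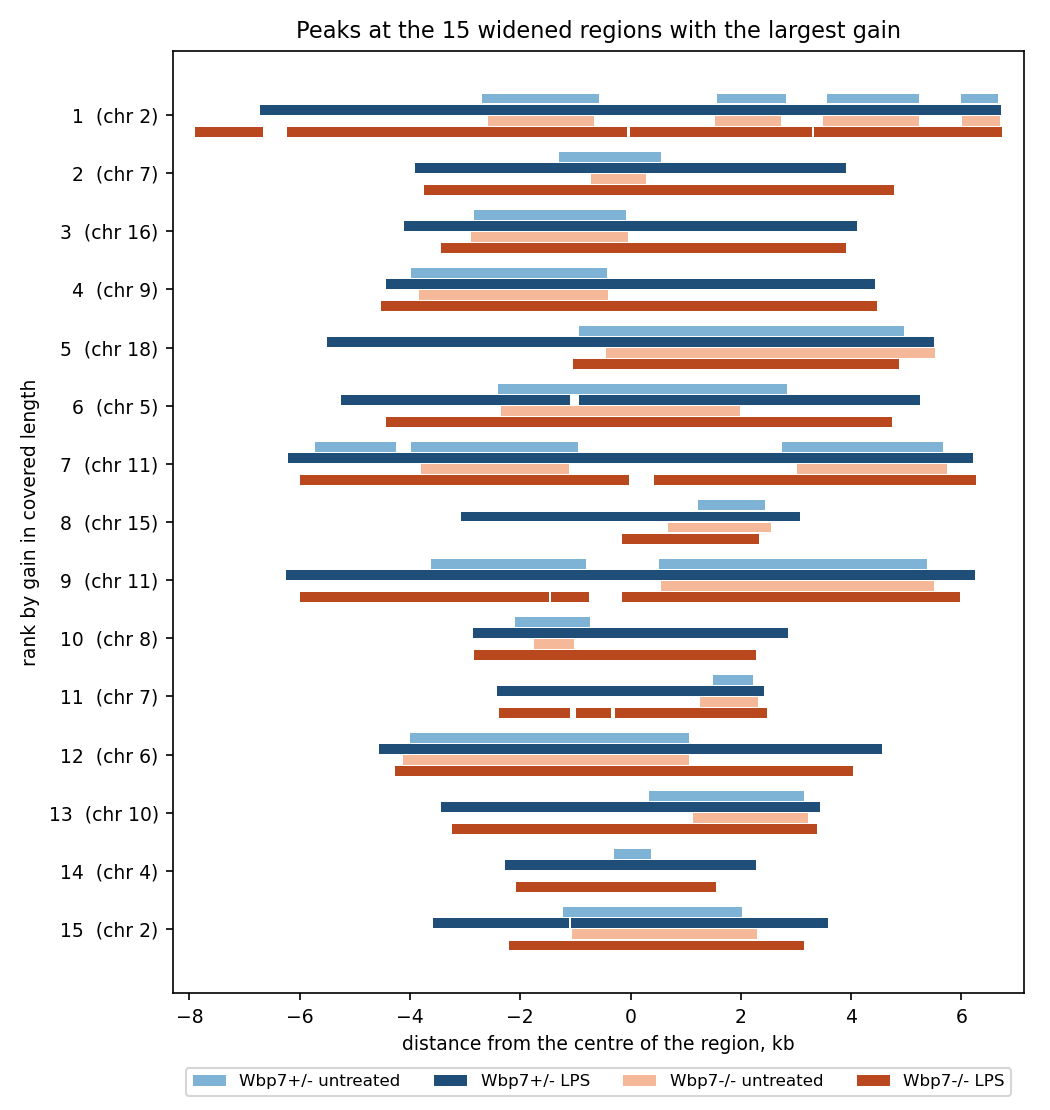
Peaks of the 4 libraries at the 15 widened regions with the largest gain in covered length, drawn as bars against the distance in kb from the centre of each region. The LPS bars of both genotypes reach beyond the untreated bars at most ranks; at rank 5 on chromosome 18 the covered length is nearly the same with and without LPS in Wbp7-/- cells, at 5920 and 5950 bp.

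By fold, 7 further regions stood out, with covered lengths of 352 to 721 bp untreated and 1584 to 3452 bp with LPS. Their untreated peaks were weak, scoring 57.97 to 356.89. The largest fold among them, 6.16, was on chromosome 6 from 108785590 to 108787910, with 377 and 2321 bp. Chromosome 5 had a region that reached the ceiling from 143721841 to 143724660, with 540 and 2820 bp. Another, from 105565966 to 105568721, had 542 and 2756 bp. At 5 of the 7 Wbp7-/- cells had a peak with LPS and none untreated. The exception without any Wbp7-/- peak was on chromosome 5 from 141716793 to 141720244, where coverage went from 653 to 3452 bp.

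Of the 15 narrowed regions with the largest loss, 14 were at the ceiling untreated and 12 were still there with LPS. On chromosome 7 from 147169087 to 147179730 coverage went from 10644 to 4869 bp, with 9626 bp in LPS-treated and 10547 bp in untreated Wbp7-/- cells. On chromosome 19 from 46574048 to 46586776 it went from 12396 to 8196 bp, and in Wbp7-/- cells from 12275 to 9226 bp. On chromosome 9 from 119973868 to 119979729 a peak of 5862 bp at the ceiling became 2 peaks. Together these covered 2005 bp, with a top score of 427.33. Wbp7-/- coverage at that region was 5841 bp untreated and 5318 bp with LPS.

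Of the 15 largest losses, 4 met the narrowing rule in Wbp7-/- cells and 13 were shorter by any amount. The 4 were on chromosome 1 from 173769428 to 173776339 (6912 to 3440 bp in Wbp7+/-, 6912 to 3798 bp in Wbp7-/-), chromosome 2 from 33073564 to 33077758 (4195 to 1591 bp, 4041 to 2194 bp), chromosome 13 from 34022945 to 34028669 (5725 to 3195 bp, 4252 to 2382 bp) and chromosome 5 from 138696059 to 138700541 (4483 to 2036 bp, 4173 to 2237 bp). By contrast, the region on chromosome 5 from 33360270 to 33367170 went from 6825 to 3551 bp in Wbp7+/- cells and was fully covered, at 6901 bp, in both Wbp7-/- lists. The steepest loss by fold, 4.59 times, was on chromosome 17 from 84517775 to 84521191, with 3417 and 744 bp, against 3326 and 2835 bp in Wbp7-/- cells. The 9 further regions with the largest fold scored 112.62 to 1448.27 untreated and at most 166.49 with LPS. Wbp7-/- cells had peaks in both lists at 5 of them, in the untreated list alone at 2, in the LPS list alone at 1 and in neither at 1. Of the 5, 0 met the narrowing rule, against 0.664% of the 12503 shared regions with peaks in both Wbp7-/- lists. All 5 scored lower with LPS, against 62.4% of shared regions not at the ceiling in both Wbp7-/- lists. The region with a Wbp7-/- LPS peak alone was on chromosome 11 from 58795019 to 58796522. Coverage there went from 1504 to 449 bp in Wbp7+/- cells and was 926 bp in LPS-treated Wbp7-/- cells.

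The Wbp7-/- lists give the only second look at the widths, since they share no library with the Wbp7+/- lists. Of the 491 widened regions, 348 had a peak in both Wbp7-/- lists, 83 in the LPS list alone, 7 in the untreated list alone and 53 in neither. Coverage in Wbp7-/- cells was counted inside the Wbp7+/- region. At 166 of the 348 (47.7%, 42.5 to 52.9) the widening rule was met in Wbp7-/- cells too, while it was met at 2.51% of all 12503 shared regions with peaks in both Wbp7-/- lists. Coverage was longer by any amount at 316 of the 348 (90.8%), against 37.6% of all 12503. The median Wbp7-/- ratio at these regions was 1.49.

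Narrowing recurred less often. Of 198 narrowed regions with peaks in both Wbp7-/- lists, 17 (8.59%, 5.43 to 13.3) met the narrowing rule there, against 0.664% of all 12503. With whole Wbp7-/- peak lengths in place of the part inside the region, it was 14.6% against 2.22%. Their median Wbp7-/- ratio was 0.961, and 133 (67.2%) were shorter by any amount, against 49.5% of all. Scores moved with them: Wbp7-/- scores were lower with LPS at 121 of the 198 and higher at 18, and at widened regions lower at 26 of the 348 and higher at 167. Over all 12503 regions they were lower at 2358 and higher at 1465. Without regions that both Wbp7-/- lists have at the ceiling, the lower share was 87.7% at narrowed, 13% at widened and 62.4% at all shared regions. Calls in opposite directions were near the share over all 12503 regions. Of the 348, 3 (0.862%, 0.294 to 2.5) were narrowed in Wbp7-/- cells, against 0.664% of all. Of the 198, 3 (1.52%, 0.517 to 4.36) were widened, against 2.51% of all. Across the 12503 regions the log2 ratios of the genotypes had a Pearson r of 0.412 and a Spearman rho of 0.318. This is a description across regions, which are not replicates, and all 4 lists came from the same peak caller.

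**Figure D5:**
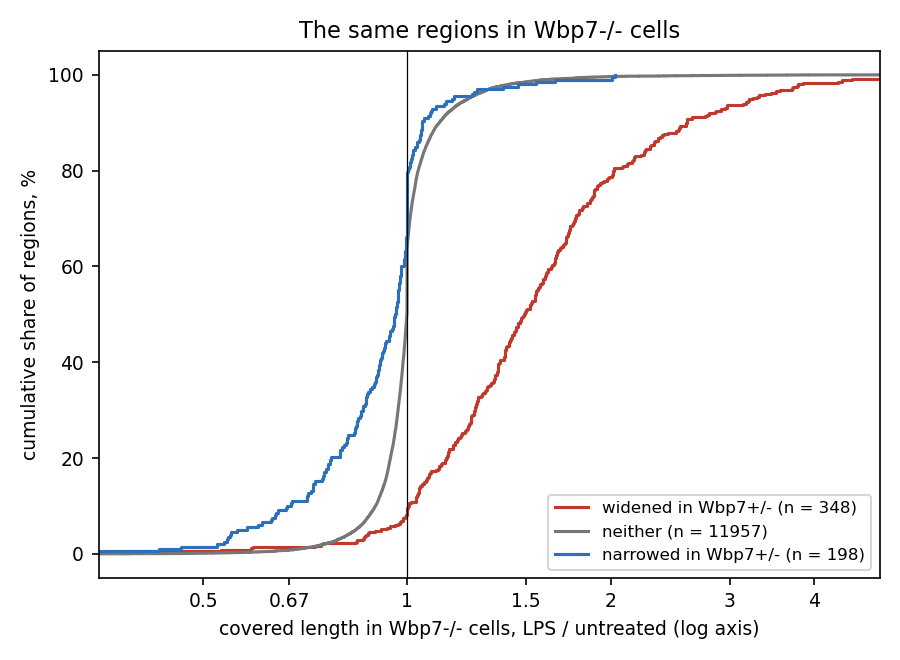
Cumulative share of regions (percent) against the ratio of LPS to untreated covered length in Wbp7-/- cells (log axis), for regions widened, narrowed or neither in Wbp7+/- cells. The curve of widened regions is shifted to the right with a median of 1.49, and that of narrowed regions lies slightly to the left with a median of 0.961.

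Counted only where Wbp7-/- cells were marked with as well as without LPS, recurrence of widening was lowest for weak untreated peaks. The shares that follow have that base, which held 24 of the 77 widened regions under 100. A region that Wbp7-/- cells marked only after LPS was left out, as no ratio can be formed there. That was the case at 83 of all 491 widened regions. The 83 were not split by class, and whether leaving them out lowered the share under 100 was not tested. By untreated Wbp7+/- class, 4 of 24 widened regions under 100 (16.7%, 6.68 to 35.9) were widened in Wbp7-/- cells, 24 of 55 from 100 to 500 (43.6%), 46 of 78 from 500 to the ceiling (59%, 47.9 to 69.2) and 92 of 191 at the ceiling (48.2%, 41.2 to 55.2). All shared regions of the same classes were widened in Wbp7-/- cells at 4.55%, 4.54%, 4.91% and 1.81%. Regions widened less than 2-fold recurred at 41% (35 to 47.2) those widened 2-fold to 3-fold at 65.5% (54.8 to 74.8), and the 15 widened 3-fold or more at 60% (35.7 to 80.2). For narrowing the classes gave 0 of 7 (with a Wilson interval up to 35.4%), 7 of 66, 3 of 62 and 7 of 63. All shared regions of those classes were narrowed in Wbp7-/- cells at 1.14%, 2.41%, 1.41% and 0.326%.

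More regions had a lower score with LPS than a higher one. Of the 15284 shared regions 13214 (86.5%) kept their score class, 804 (5.26%) went to a higher class with LPS and 1266 (8.28%) to a lower one. Below the ceiling in both lists, 3120 of 5477 regions had a lower score with LPS and 2357 a higher one, with a median difference of -19.7. A score grows with sequencing depth, which is unknown here, and the LPS list also had fewer ceiling peaks. Jumps of 2 or more classes were nevertheless more often upward, at 58 against 20 regions. Of the regions that went up a class 197 were widened and 4 narrowed, and of those that went down 7 were widened and 109 narrowed.

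The 10 regions with the largest score gain below the ceiling scored 57.97 to 643.87 untreated and 2192.22 to 3034.56 with LPS. The first was on chromosome 11 from 48874295 to 48876506, where 2 weak peaks covering 750 bp together became 1 of 2212 bp. At 9 of the 10 the only Wbp7-/- peak was the one with LPS. At the remaining one, on chromosome 14 from 59877936 to 59879229, Wbp7-/- coverage was 543 bp untreated and 1294 bp with LPS, and the width in Wbp7+/- cells differed little, at 1102 and 1294 bp.

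The 10 largest score losses went from untreated scores of 2281.61 to 3059.26 down to 182.39 to 1016.15 with LPS, and all 10 regions had peaks in both Wbp7-/- lists. The Wbp7-/- score was lower with LPS at 6 of them and at the ceiling in both lists at 4. On chromosome 5 from 91200679 to 91202742 the peak covered 2064 and 1781 bp in Wbp7+/- cells, and 2064 and 2056 bp in Wbp7-/- cells. The region on chromosome 13 from 55290491 to 55293366 had the largest loss, from 2915.5 to 336.05, while its coverage went from 1730 to 2876 bp and met the widening rule. In Wbp7-/- cells 0 of the 10 met the narrowing rule, against 0.664% of all 12503 shared regions with peaks in both Wbp7-/- lists. The 10 were picked by score and not by width, so a count of 0 is no contrast to that share.

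Gains lay next to each other at some places. New peaks scoring 500 or more and widened regions, 599 in all, were linked where they lay within 100 kb of each other; the score limit and the size of locus described were chosen after the values were seen. This gave 19 loci of 3 or more gains, holding 69 regions, and 388 gains stood alone. The 244 corresponding losses formed 0 loci of 3 or more, and 226 stood alone. There were fewer losses to link, and no comparison with random positions was made.

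The 4 largest loci held 5 gains each. On chromosome 18 from 60532986 to 60599847 all 5 were new peaks, among 8 regions in 66.9 kb, and covered 10216 bp with LPS and none untreated. Wbp7-/- coverage of these was 5951 bp with LPS and none untreated. On chromosome 17 from 34239527 to 34444233 all 5 were widened, among 15 regions, from 9402 to 15665 bp in sum. The locus on chromosome 3 from 142156475 to 142287276 had 1 new and 4 widened regions and went from 9720 to 21139 bp. That on chromosome 5 from 92705401 to 92792810 had 3 new and 2 widened regions and went from 4396 to 13088 bp, and one of the 10 strongest missing peaks, from 92782104 to 92783098 with 995 bp, lay inside it.

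Loci of 4 gains were on chromosome 1 from 172837297 to 172982529, chromosome 11 from 117733165 to 117857965, chromosome 19 from 34671372 to 34721045 and chromosome 5 from 65201620 to 65352135. The chromosome 11 locus contains the widest new peak and went from 6658 to 20748 bp, against 5152 and 16672 bp in Wbp7-/- cells. The chromosome 19 locus held 2 new and 2 widened regions in 49.7 kb. Summed Wbp7-/- coverage was higher with LPS at all 19 loci. As single regions, 90.8% of the 348 widened ones and 37.6% of all 12503 were longer with LPS in Wbp7-/- cells. The loci are sums over the same new and widened regions, so their count adds no separate evidence. At chromosome 14 from 103411824 to 103449656, with 3 widened regions, it went from 791 to 9146 bp, while Wbp7+/- coverage went from 3517 to 9425 bp.

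Gains were spread over the chromosomes. The share of shared regions that were widened ran from 1.32% on the X chromosome, 6 of 455, to 5.34% on chromosome 3, 40 of 749. Narrowed regions outnumbered widened ones on chromosome 15 alone, with 13 against 12. New peaks scoring 500 or more numbered 108 over all chromosomes, in an LPS list of 17313 peaks. Of these, 16 were among 1340 LPS regions on chromosome 2, 8 among 466 on chromosome 18 and 0 among 721 on chromosome 13. Whether any chromosome departed from the general rate was not tested.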

How the data were processed

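The members and lists described here were chosen with earlier results of these data known. Cells were crosslinked in 1% formaldehyde (10 min) and chromatin was precipitated with 10 ug of anti-H3K4me3, per the labels' protocols. Reads were aligned with Bowtie to mm9, per the submitters' processing notes, and MACS called peaks in each library, with input named, per the file headers. No source used here gives their versions, thresholds or depths. Each peak's score was deposited by the authors as the caller gave it and was used to class peaks and to rank them within a list. It was set between lists only as a description. The untreated and LPS groups came from the sample titles.

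Peaks were matched by an overlap of 1 bp, and overlapping peaks of both Wbp7+/- lists were joined into regions in pandas 2.3.3 (numpy 2.4.6, Python 3.11.15). Covered length is the summed length of a list's peaks in a region. Wilson intervals came from scipy 1.17.1 and plots from matplotlib 3.10.9. On simulated data, the untreated Wbp7+/- list of 17316 peaks with 200 peaks removed, 200 doubled and 200 halved in width, the procedure recovered 200 of 200 in each case with 0 false calls. That checks the counting, not the variation between libraries.

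Regions named were all new peaks at the ceiling, the 10 highest-scoring below it, the 10 highest-scoring missing peaks, the 15 widened and 15 narrowed regions with the largest change in bp, the 10 of each with the largest fold (repeats left out) and the 10 largest score differences each way below the ceiling. Planned gene lists and cell type markers need an mm9 annotation and were not run; the gene table at hand is of GRCm38. Alternatives covered the overlap, a 1 kb distance, score limits, the fold, the minimum in bp, joining, centring and the outer span.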

Additional observations from a re-analysis of the deposited data

Results flagged for a closer look

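At 3 regions Wbp7+/- cells met the widening rule and Wbp7-/- cells the narrowing rule, and at 3 others the reverse was seen. These were picked out because the genotypes moved in opposite directions, and the difference was not tested. They are 0.862% of 348 widened regions, against 0.664% narrowed in Wbp7-/- cells over all 12503, and 1.52% of 198 narrowed regions, against 2.51% widened over all, so both are near the overall share. The highest-scoring with widening in Wbp7+/- cells was on chromosome 2 from 167186276 to 167188219, with 578 bp untreated and 1944 bp with LPS, against 1713 and 591 bp in Wbp7-/- cells. The highest-scoring of the reverse kind was on chromosome 19 from 21811561 to 21812983, with 1423 and 628 bp against 918 and 1423 bp.

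Opposite presence was seen at 28 regions with a new Wbp7+/- peak and a Wbp7-/- peak in untreated cells alone, which is 1.81% of 1550, against 1.74% of shared regions with that Wbp7-/- pattern. It was also seen at 59 regions with a missing Wbp7+/- peak and a Wbp7-/- peak in LPS-treated cells alone, which is 4.56% of 1293, against 3.06% of shared regions. These differences were not tested either. The 87 scored at most 251.05, and 69 of them scored under 100.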

How the results depend on the processing

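Among 47 alternatives, 34 gave a count less than 1.5 times away from that reported, or a share inside its interval, and 13 did not. With only peaks scoring at least 100 kept, new peaks numbered 998. With only peaks at or above each list's median score, which was the ceiling, new peaks numbered 232 and missing peaks 389. This was the only alternative with fewer new than missing peaks. Cutting peaks from a list also makes unmatched peaks in the other. Of the 232 and 389, only 20 and 0 had no peak of any score in the other list. The lower alternative fold limit gave 873 widened and 623 narrowed regions, 2-fold gave 175 and 79, and a 1 kb minimum gave 319 and 93. Kept to regions at the ceiling in both lists, an alternative chosen after seeing the data, the numbers were 191 and 49. These limits count part of the reported set, or more than it, by construction. Widened regions outnumbered narrowed ones under each of these and under no minimum, joining within 1 kb, centring, scores of at least 100 and the outer span. The share of widened regions also widened in Wbp7-/- cells ranged over the alternatives from 43.4% to 52.7%. The share of narrowed regions also narrowed there was 3.03% (of 66) at 2-fold, where 0.16% of all regions were narrowed, and 14.6% with full Wbp7-/- peak lengths, chosen after seeing the data, where 2.22% of all regions were narrowed. No alternative could leave out the LPS library of uncertain time, which is the only one of its group, and no paired analysis was possible because each group has 1 library.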
